A study of Mus musculus with 15 samples.

Results

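The erythroid and heme synthesis genes are 32 named genes of developing red blood cells, taken by symbol from a table of 55335 gene IDs: 4 adult globin genes, 9 genes of the red cell membrane and blood groups, 9 genes of heme synthesis, 6 regulators and receptors, and 4 others. All 32 were found in the table, and all 32 passed the filter for testing, which asked for 1 FPKM or more in 5 or more of the 15 libraries. The RNA came from the tibial bone plate under the joint cartilage, frozen, ground whole and sequenced after poly(A) selection, of male C57BL/6J mice in 3 groups of 5. Mice were operated at 8 weeks of age and the bone was taken 8 weeks after surgery. Wild-type mice had either a sham operation, which opened the joint capsule and spared the ligament, or destabilization of the medial meniscus (DMM), which cuts the medial meniscotibial ligament and leads to osteoarthritis. The remaining mice had DMM and were Dmp1-Cre;Pvalb fl/fl, a conditional knockout in which the Dmp1 promoter drives Cre in osteocytes, the cells embedded in bone matrix. This Cre is aimed at osteocytes and not at red cell precursors, and no knockout mice with a sham operation were analysed here. The labels call the libraries biological replicates and give no pairing, litter or batch.

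Red blood cells are made in the marrow, which fills the spaces of the bone plate, so ground bone carries their RNA. Precursors first depend on the receptor for erythropoietin and on the transcription factors Gata1, Tal1 and Klf1, then fill with hemoglobin, made of alpha and beta globin chains that each hold a heme. Heme is built from glycine and succinyl-CoA in steps that begin and end in mitochondria, while the membrane receives the anion exchanger band 3 and a spectrin skeleton anchored by ankyrin, and the nucleus is finally lost. In bulk bone, fewer cells of a type and less RNA per cell cannot be told apart.

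Values were FPKM, fragments scaled to transcript length and library total, and each library's values added up to 375453 to 468423. The table held no counts, so depth was unknown, and 12592 to 13510 gene IDs reached 1 FPKM in a library. Pvalb, the targeted gene, was 15.8 to 490 FPKM in sham, 33.0 to 375 in DMM wild-type and 23.7 to 166 in knockout DMM libraries, so its level in whole bone did not separate the genotypes. Whole-bone levels do not show how much was deleted in osteocytes, which was not tested. On the first principal component of all tested genes, which held 32.2% of the variance, 3 libraries stood apart from the other 12: DMM wild-type replicate 3 and knockout DMM replicates 1 and 4. They also had the 3 lowest counts of gene IDs at 1 FPKM, 12854, 12592 and 12704 in that order. Counts over the gene groups, and the differences that moved most, are also given without these 3 libraries, a choice made after seeing the data. The fast muscle list, 10 genes, varied between 3.21 and 8.33 in mean log2(FPKM + 1) over the libraries. Adding it as a covariate called 0 of the 32 genes in each comparison. Of all genes tested, that fit called 249 in DMM wild-type against sham. It called 1 in knockout against wild-type DMM and 8 in knockout DMM against sham. The osteoblast and osteocyte list, which includes Dmp1 and Sost, was between 5.68 and 6.78 in mean log2(FPKM + 1), so the labelled tissue carried the markers of bone cells beside those of marrow.

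The region upstream of 8 of these genes is shown because the 32 genes moved together from library to library and because Gata1 and Klf1, factors that bind WGATAR and CACCC-type sequences, are among them. Each line is the 120 bases that end at the annotated RefSeq start, 5′ to 3′ on the gene's strand, from the mouse build GRCm38.p6, a different build from the one named for the deposited values. Capitals mark AGATAA or CCNCNCCC on either strand, where N is any base.
Hba-a1: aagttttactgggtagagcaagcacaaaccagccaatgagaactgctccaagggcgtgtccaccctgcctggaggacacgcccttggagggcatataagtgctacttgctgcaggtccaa
Hba-a2: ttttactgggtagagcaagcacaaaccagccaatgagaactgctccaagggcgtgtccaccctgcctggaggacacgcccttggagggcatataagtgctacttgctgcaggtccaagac
Hbb-bs: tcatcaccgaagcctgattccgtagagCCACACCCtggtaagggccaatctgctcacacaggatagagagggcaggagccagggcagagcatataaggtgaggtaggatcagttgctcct
Hbb-bt: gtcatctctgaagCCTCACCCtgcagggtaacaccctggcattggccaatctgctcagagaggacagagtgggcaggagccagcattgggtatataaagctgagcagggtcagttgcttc
Alas2: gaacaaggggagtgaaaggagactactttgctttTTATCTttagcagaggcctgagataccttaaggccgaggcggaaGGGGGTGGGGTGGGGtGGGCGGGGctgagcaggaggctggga
Kel: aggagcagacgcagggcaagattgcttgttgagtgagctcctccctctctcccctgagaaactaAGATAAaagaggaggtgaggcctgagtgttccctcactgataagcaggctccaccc
Rhd: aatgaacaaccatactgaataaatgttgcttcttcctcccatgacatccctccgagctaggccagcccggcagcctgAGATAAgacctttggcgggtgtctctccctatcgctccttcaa
Epor: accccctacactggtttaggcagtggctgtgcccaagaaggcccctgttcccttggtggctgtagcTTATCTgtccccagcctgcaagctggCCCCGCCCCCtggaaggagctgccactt
The 2 alpha globin windows lie at chr11:32283552-32283671 and chr11:32296372-32296491 on the plus strand, and the beta globin windows of Hbb-bs and Hbb-bt at chr7:103827929-103828048 and chr7:103813924-103814043 on the minus strand. The Alas2 window is chrX:150547297-150547416 (plus), Kel is chr6:41704326-41704445 (minus), Rhd is chr4:134864416-134864535 (plus) and Epor is chr9:21963577-21963696 (minus). The Hba-a1 and Hba-a2 windows shared an unbroken run of 117 bases, while the longest run shared by Hbb-bs and Hbb-bt was 14 bases. Neither alpha globin window held a match to either motif. Hbb-bs also held AGATAA 210 bases before its start, outside the bases printed, and Epor held CCNCNCCC from 124 and from 122 bases before its start, matches that run past the edge of the printed bases and are left in lower case there.

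Over the 250 bases before the start, 26 of the 32 genes had a RefSeq window. AGATAA was present in 8 of the 26 (30.8%) and in 11.4% of the windows of 27025 genes. Those 8 were Alas2, Epb42, Epor, Hbb-bs, Kel, Rhd, Tal1 and Trim10. CCNCNCCC was present in 14 of the 26 (53.8%) and in 48.5% of all windows, and both were present in 4 (15.4%), against 3.89% of all windows. The motifs do not overlap in their letters, and matches of CCNCNCCC to one another can overlap, as in Alas2. A match describes letters only.

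The globin genes encode the protein chains of hemoglobin and were the highest of the 32 genes on the FPKM scale. Hba-a1, an alpha globin gene (ENSMUSG00000069919), was at 24063, 20807, 32851, 29830 and 21611 FPKM in sham replicates 1 to 5. In the DMM wild-type group it was at 26317, 24914, 28809, 19692 and 30246 FPKM. In the knockout group with DMM it was at 11960, 28751, 24177, 43772 and 29596 FPKM. The groups overlapped, and both the lowest and the highest of all 15 libraries were knockout bones, replicates 1 and 4. The means were 25833 ± 5278 in sham, 25996 ± 4093 in DMM wild-type and 27651 ± 11436 FPKM in the knockout group (SD, n = 5 each).

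Hbb-bs, a beta globin gene (ENSMUSG00000052305), was at 23117, 19624, 27185, 27500 and 20553 FPKM in sham replicates 1 to 5. It was at 27178, 22269, 24343, 17953 and 27151 FPKM in DMM wild-type and at 10548, 25012, 21270, 37701 and 29246 FPKM in replicates 1 to 5 of the knockout group. It followed Hba-a1, with the same knockout libraries at both ends. Hba-a2 ranged from 9595 to 35931 FPKM and Hbb-bt from 7485 to 25749 FPKM, again with knockout replicate 1 lowest and replicate 4 highest. The 4 genes together made up 10.2% of all FPKM in knockout replicate 1 and 30.6% in knockout replicate 4, with a median of 22.1% over the 15 libraries.

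The ratio of Hba-a1 to Hba-a2 stayed between 1.18 and 1.25 and that of Hbb-bs to Hbb-bt between 1.39 and 1.496 in all 15 libraries. The transcripts of the alpha pair are 99.8% identical over 537 of 538 aligned bases and those of the beta pair 93.6% identical over 570 of 609, so the split of reads within each pair is uncertain. The sum of alpha over the sum of beta globin was 1.04 to 1.30. The embryonic globin genes Hbb-bh1, Hbb-y and Hba-x, normally silent in the adult, stayed below 1 FPKM in every library and were not tested.

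After DMM in wild-type mice, the log2 difference from sham was 0.02 for Hba-a1 (SE 0.30, 95% interval -0.62 to 0.66; limma adjusted p = 0.991) and 0.01 for Hbb-bs (SE 0.29; adjusted p = 0.994). Knockout DMM minus DMM wild-type was -0.01 for Hba-a1 (interval -0.65 to 0.63; adjusted p = 0.996) and -0.04 for Hbb-bs (adjusted p = 0.982). The intervals leave room for a change of 0.6 log2 units in either direction. Leaving out knockout replicate 1 moved the Hba-a1 difference between knockout and wild-type DMM bones to 0.26, and leaving out knockout replicate 4 moved it to -0.21.

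**Figure D1:**
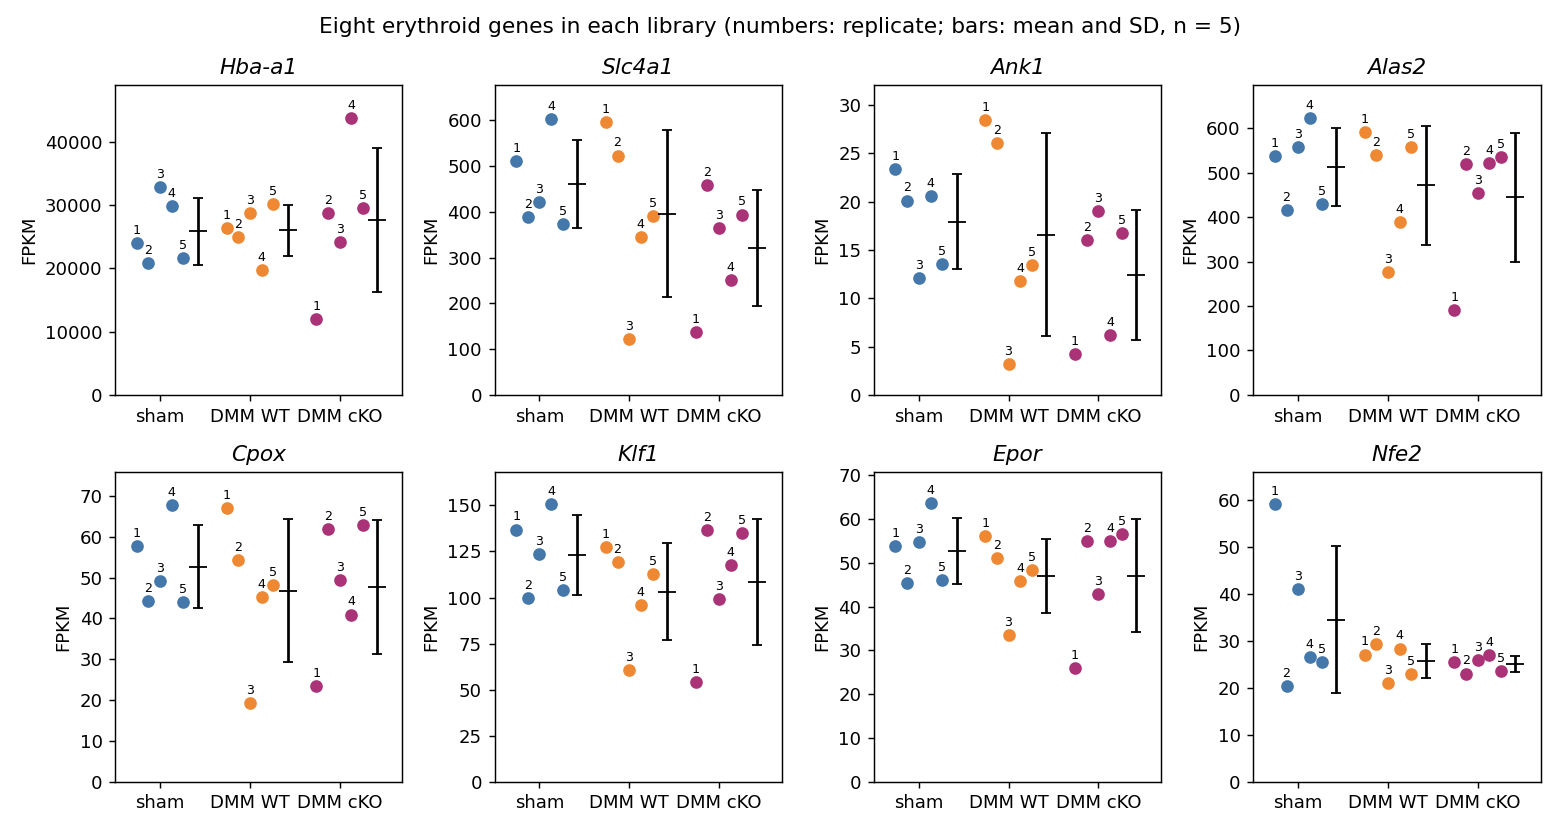
FPKM of 8 erythroid genes in each library, with 1 panel per gene, a linear axis from 0 and the replicate number beside each point. Bars are the mean and SD of 5 libraries. Knockout replicate 1 is lowest for Hba-a1 (11960 FPKM) and Alas2 (191 FPKM), DMM wild-type replicate 3 is lowest for Slc4a1 (123 FPKM) and Ank1 (3.25 FPKM), and the groups overlap in every panel.

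Slc4a1 encodes band 3, the anion exchanger of the red cell membrane and the anchor of its skeleton. Slc4a1 (ENSMUSG00000006574) was at 511, 390, 422, 603 and 374 FPKM in sham replicates 1 to 5. It was at 596, 523, 123, 345 and 392 FPKM in DMM wild-type and at 137, 459, 364, 252 and 394 FPKM in replicates 1 to 5 of the knockout group. Unlike the globins, its lowest library was DMM wild-type replicate 3, and knockout replicate 4 was below all sham libraries. The means were 460 ± 95.9 in sham, 396 ± 183 in DMM wild-type and 321 ± 127 FPKM in knockout DMM (SD, n = 5 each).

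Ank1 encodes ankyrin, which ties band 3 to spectrin. Ank1 was at 23.4, 20.1, 12.1, 20.7 and 13.5 FPKM in sham replicates 1 to 5. It was at 28.5, 26.0, 3.25, 11.8 and 13.4 FPKM in DMM wild-type and at 4.26, 16.04, 19.0, 6.20 and 16.7 FPKM in replicates 1 to 5 of the knockout group. Its highest value was 8.77 times its lowest, the widest range of the 32 genes, and its 3 lowest libraries were the 3 that stood apart.

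The other 7 membrane genes spread over narrower ranges than Slc4a1 and Ank1. Epb42, which encodes protein 4.2, a partner of band 3, ranged from 14.4 to 52.7 FPKM, and Sptb, the beta chain of erythroid spectrin, from 16.4 to 52.4 FPKM. Rhag and Rhd, of the Rh complex, ranged from 44.1 to 99.7 and from 65.5 to 176 FPKM. Kel, the Kell blood group protease, ranged from 36.3 to 100.1 FPKM, Ermap, the Scianna blood group protein, from 20.0 to 66.1 FPKM, and Tspan33, a membrane tetraspanin of erythroid precursors, from 19.6 to 53.4 FPKM. Knockout replicate 1 was the lowest library for Sptb, Ermap, Rhag, Rhd, Kel and Tspan33, and DMM wild-type replicate 3 for Slc4a1, Epb42 and Ank1.

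All 9 membrane genes had a lower mean log2 level after DMM than after sham in wild-type mice (median difference -0.20), and 9 of 9 in knockout DMM against sham (median -0.33). None of these differences passed the test. For Slc4a1 the difference was -0.37 (SE 0.39; adjusted p = 0.917) in the former and -0.61 (SE 0.39, interval -1.45 to 0.23; adjusted p = 0.482) in the latter. For Ank1 it was -0.35 (SE 0.49; adjusted p = 0.92) and -0.64 (SE 0.49, interval -1.69 to 0.41; adjusted p = 0.523). Without the 3 libraries that stood apart, the Slc4a1 values were 0.0019 and -0.16 and the Ank1 values 0.088 and -0.016, and the membrane genes were lower in 3 of 9 and 6 of 9.

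Heme synthesis starts with 5-aminolevulinate synthase, whose erythroid form is encoded by Alas2. Alas2 (ENSMUSG00000025270) was at 538, 415, 557, 624 and 430 FPKM in sham replicates 1 to 5. It was at 592, 541, 277, 388 and 559 FPKM in DMM wild-type and at 191, 520, 453, 521 and 536 FPKM in replicates 1 to 5 of the knockout group. Knockout replicate 1 was the lowest of the 15, and the other 4 knockout libraries were within the sham range. Alas1, the housekeeping form of the same enzyme, was 39.9 FPKM in knockout replicate 1, its highest library, and 16.8 to 24.5 FPKM in the other 14. The ratio of Alas2 to Alas1 was accordingly 4.78 in that library, 11.3 in DMM wild-type replicate 3 and 16.4 to 34.8 in the other 13.

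Alad, Uros, Urod and Ppox varied less than Alas2 from library to library. Alad, which joins aminolevulinate into porphobilinogen, ranged from 55.0 to 117 FPKM, and Uros, which closes the ring, from 10.4 to 22.7 FPKM. Urod, which trims its side chains, ranged from 49.6 to 86.6 FPKM, and Ppox, which oxidises protoporphyrinogen, from 28.0 to 48.6 FPKM. Knockout replicate 1 was the lowest library for these 4 genes. The highest library was knockout replicate 4 for Alad and Urod and sham replicate 4 for Uros and Ppox. The highest level was 1.73 times the lowest for Ppox and 1.75 times for Urod, the narrowest ranges of the 32 genes.

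Cpox and Fech, coproporphyrinogen oxidase and the ferrochelatase that inserts iron, had wider ranges. Cpox was at 57.7, 44.4, 49.3, 67.9 and 44.1 FPKM in sham, 67.1, 54.4, 19.2, 45.2 and 48.1 FPKM in DMM wild-type and 23.4, 62.0, 49.4, 41.0 and 62.9 FPKM in replicates 1 to 5 of the knockout group. Fech was at 32.4, 21.4, 22.4, 37.8 and 25.8 FPKM in sham, 32.5, 31.9, 9.18, 17.6 and 23.4 FPKM in DMM wild-type and 8.93, 30.1, 24.1, 16.4 and 23.3 FPKM in replicates 1 to 5 of the knockout group. In both, DMM wild-type replicate 3 and knockout replicate 1 were the 2 lowest libraries. Slc25a37, the mitochondrial iron importer mitoferrin, ranged from 80.2 to 191 FPKM, and Slc25a38, the mitochondrial glycine carrier, from 20.4 to 39.3 FPKM.

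The 9 heme genes were lower after DMM than after sham in wild-type mice in 9 of 9 (median -0.10) and in knockout DMM against sham in 8 of 9 (median -0.17), with none past the threshold. The largest difference was that of Fech in knockout DMM against sham, -0.49 (SE 0.34, interval -1.22 to 0.23; adjusted p = 0.492), and it was -0.085 without the 3 libraries. Alas2 differed by -0.16 (SE 0.28; adjusted p = 0.929) after DMM in wild-type mice and by -0.12 (SE 0.28; adjusted p = 0.948) between knockout and wild-type DMM bones. The former was 0.019 without DMM wild-type replicate 3 and the latter 0.16 without knockout replicate 1, so each direction rested on 1 library. Without the 3 libraries, 4 of 9 heme genes were lower after DMM in wild-type mice and 5 of 9 in knockout DMM against sham.

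Among the regulators, Klf1 is the factor that drives adult globin and membrane genes. Klf1 (ENSMUSG00000054191) was at 137, 99.96, 123, 151 and 104 FPKM in sham replicates 1 to 5. It was at 127, 119, 60.6, 96.0 and 113 FPKM in DMM wild-type and at 54.0, 137, 99.25, 118 and 135 FPKM in replicates 1 to 5 of the knockout group. The groups overlapped, with knockout replicate 1 lowest and DMM wild-type replicate 3 next. The difference after DMM in wild-type mice was -0.28 (SE 0.25; adjusted p = 0.917) and was -0.10 without DMM wild-type replicate 3.

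Epor, the erythropoietin receptor, was at 54.0, 45.4, 54.7, 63.7 and 46.0 FPKM in sham, 56.2, 51.2, 33.6, 45.8 and 48.4 FPKM in DMM wild-type and 26.1, 55.1, 42.9, 55.0 and 56.5 FPKM in replicates 1 to 5 of the knockout group. Gata1, the lineage-determining factor of red cells and megakaryocytes, was at 49.4, 42.3, 53.4, 57.3 and 45.0 FPKM in sham, 55.5, 51.7, 43.9, 46.55 and 50.2 FPKM in DMM wild-type and 33.8, 58.0, 43.1, 62.2 and 52.7 FPKM in replicates 1 to 5 of the knockout group. Both were lowest in knockout replicate 1. Their group differences were small beside their errors: for Gata1 0.01 after DMM in wild-type mice (SE 0.14, interval -0.30 to 0.31; adjusted p = 0.993) and for Epor -0.17 (SE 0.20, interval -0.59 to 0.25; adjusted p = 0.918), or -0.057 without DMM wild-type replicate 3.

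Tal1, a partner of Gata1, ranged from 25.5 to 63.4 FPKM, and Tfrc, the transferrin receptor that brings iron into precursors, from 62.1 to 121 FPKM. Nfe2, a factor that acts on globin genes and is also central to platelet formation, behaved unlike the rest. Nfe2 was at 59.2, 20.5, 41.2, 26.5 and 25.5 FPKM in sham, 27.1, 29.3, 21.1, 28.4 and 22.9 FPKM in DMM wild-type and 25.6, 23.0, 26.0, 27.0 and 23.5 FPKM in replicates 1 to 5 of the knockout group. Sham replicates 1 and 3 were above all other libraries, and sham replicate 2 was the lowest. Its difference from sham had the smallest unadjusted p of the 32 genes, 0.163 after DMM in wild-type mice (log2 difference -0.32, SE 0.22; adjusted p = 0.917) and 0.128 in knockout DMM (-0.35, SE 0.22; adjusted p = 0.477). Without sham replicate 1 these differences were -0.10 and -0.13.

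The remaining genes were Bpgm, which makes the 2,3-bisphosphoglycerate that lowers the oxygen affinity of hemoglobin, Car1, a carbonic anhydrase, and Hemgn and Trim10, erythroid proteins. Bpgm was at 114, 93.6, 124, 136 and 94.5 FPKM in sham, 125, 124, 89.5, 74.4 and 123 FPKM in DMM wild-type and 40.2, 116, 100.3, 123 and 114 FPKM in replicates 1 to 5 of the knockout group. Knockout replicate 1 was far below the rest, and the other 14 lay between 74.4 and 136 FPKM. Car1 ranged from 98.8 to 260 FPKM, Hemgn from 64.6 to 196 FPKM and Trim10 from 59.9 to 154 FPKM, each lowest in knockout replicate 1.

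**Figure D2:**
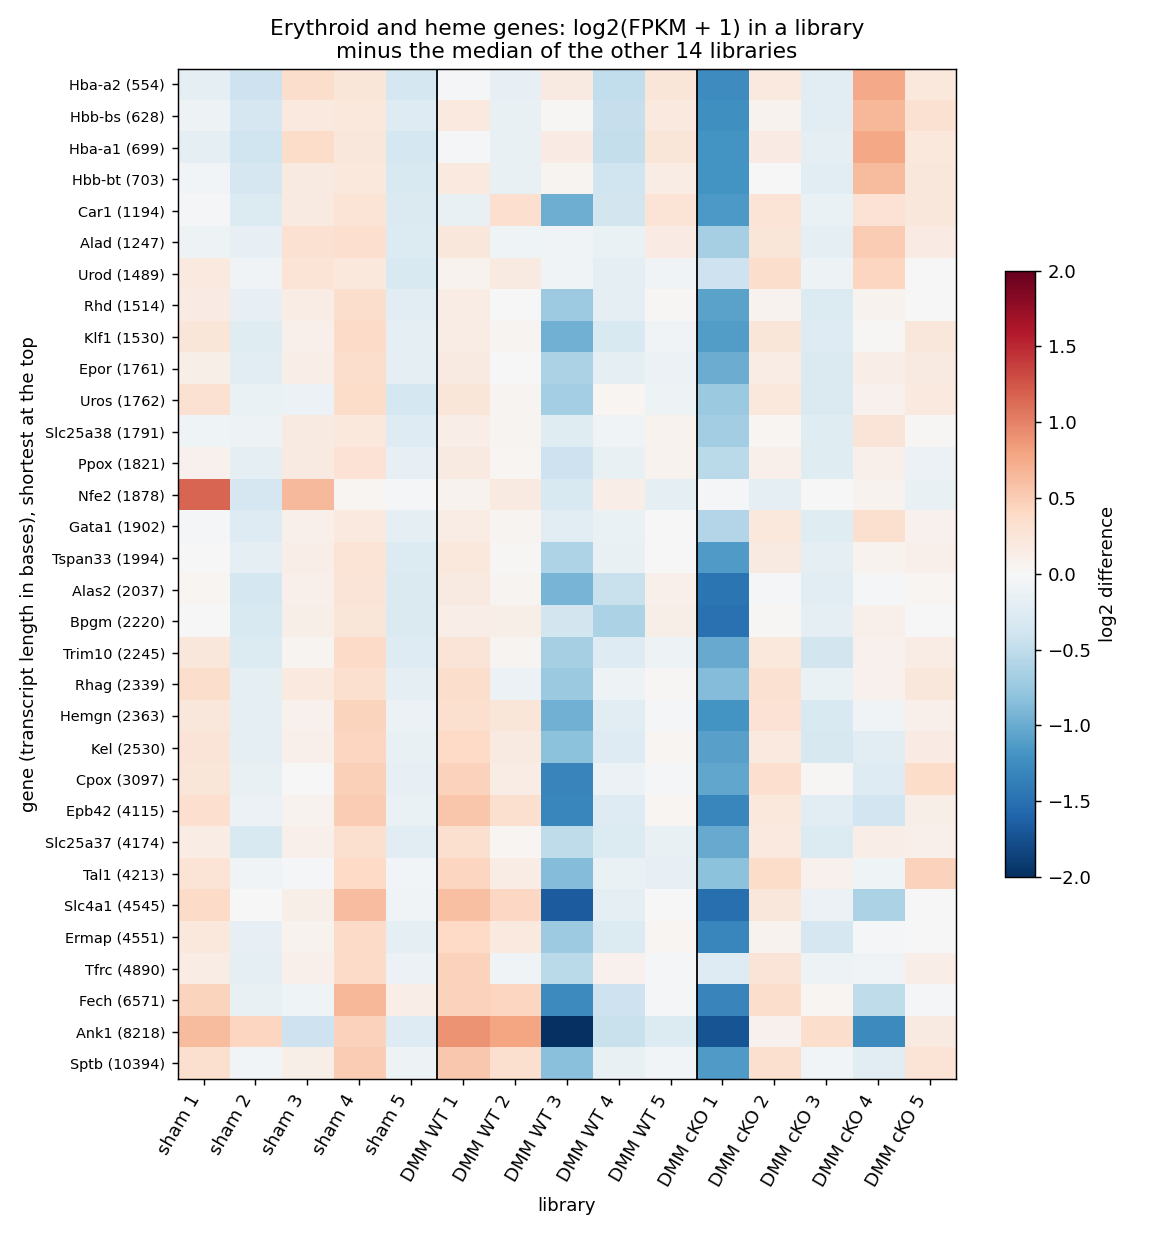
Each cell is log2(FPKM + 1) of a gene in a library minus the median of the other 14 libraries, with genes ordered by transcript length and libraries by group. The column of knockout replicate 1 is below 0 for all 32 genes, and that of DMM wild-type replicate 3 is near 0 for the globins at the top and down to -2.03 for Ank1 near the bottom.

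Across all 32 genes, no member passed the threshold in any of the 3 comparisons. After DMM in wild-type mice 0 of 32 were called at a limma adjusted p under 0.05 (background 0% of 13653 genes), and 0 of 32 had an unadjusted p under 0.05 (background 6.93%). In knockout DMM against DMM wild-type 0 of 32 were called (background 0.00732%) and 0 of 32 at the unadjusted threshold (background 3.25%). In knockout DMM against sham 0 of 32 were called (background 0.0293%) and 0 of 32 at the unadjusted threshold (background 10.5%). The groups overlapped for all 32 genes in each comparison, while 1.79%, 0.381% and 2.26% of all genes had groups that did not overlap. Errors of the differences ran from 0.13 for Ppox to 0.49 for Ank1.

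The 32 genes nonetheless leaned to one side. Their log2 difference was below 0 in 27 of 32 after DMM in wild-type mice (49.6% of all genes), with a median of -0.15 against 0.0019 over all genes. It was below 0 in 25 of 32 between knockout and wild-type DMM bones (54.9% of all genes), with a median of -0.06 against -0.017. In knockout DMM against sham it was below 0 in 30 of 32 (52.1% of all genes), with a median of -0.19 against -0.010. The genes vary together, so these counts are not independent, and each pair of comparisons shares a group. Without the 3 libraries that stood apart, 17, 14 and 16 of 32 were below 0 and the medians were -0.0047, 0.0041 and 0.0014. These libraries are all DMM bones, picked after seeing the data on a component that includes the 32 genes. Knockout replicate 1 was the lowest library for 25 of the 32 genes and DMM wild-type replicate 3 for 6. The shift towards 0 thus follows in part from the choice of libraries. The fibroblast list, 10 genes such as Col3a1 and Lum, was higher after DMM than after sham in wild-type mice, without overlap. Its mean log2(FPKM + 1) was 3.13 to 4.48 in sham and 4.74 to 5.51 in DMM wild-type libraries. In knockout DMM libraries the list was at 4.20 to 5.83 and overlapped both. Of its 10 genes 0 were called after DMM in wild-type mice, 10 were above 0 and the median difference was 1.39. Its part in the FPKM of the red cell genes was not tested.

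**Figure D3:**
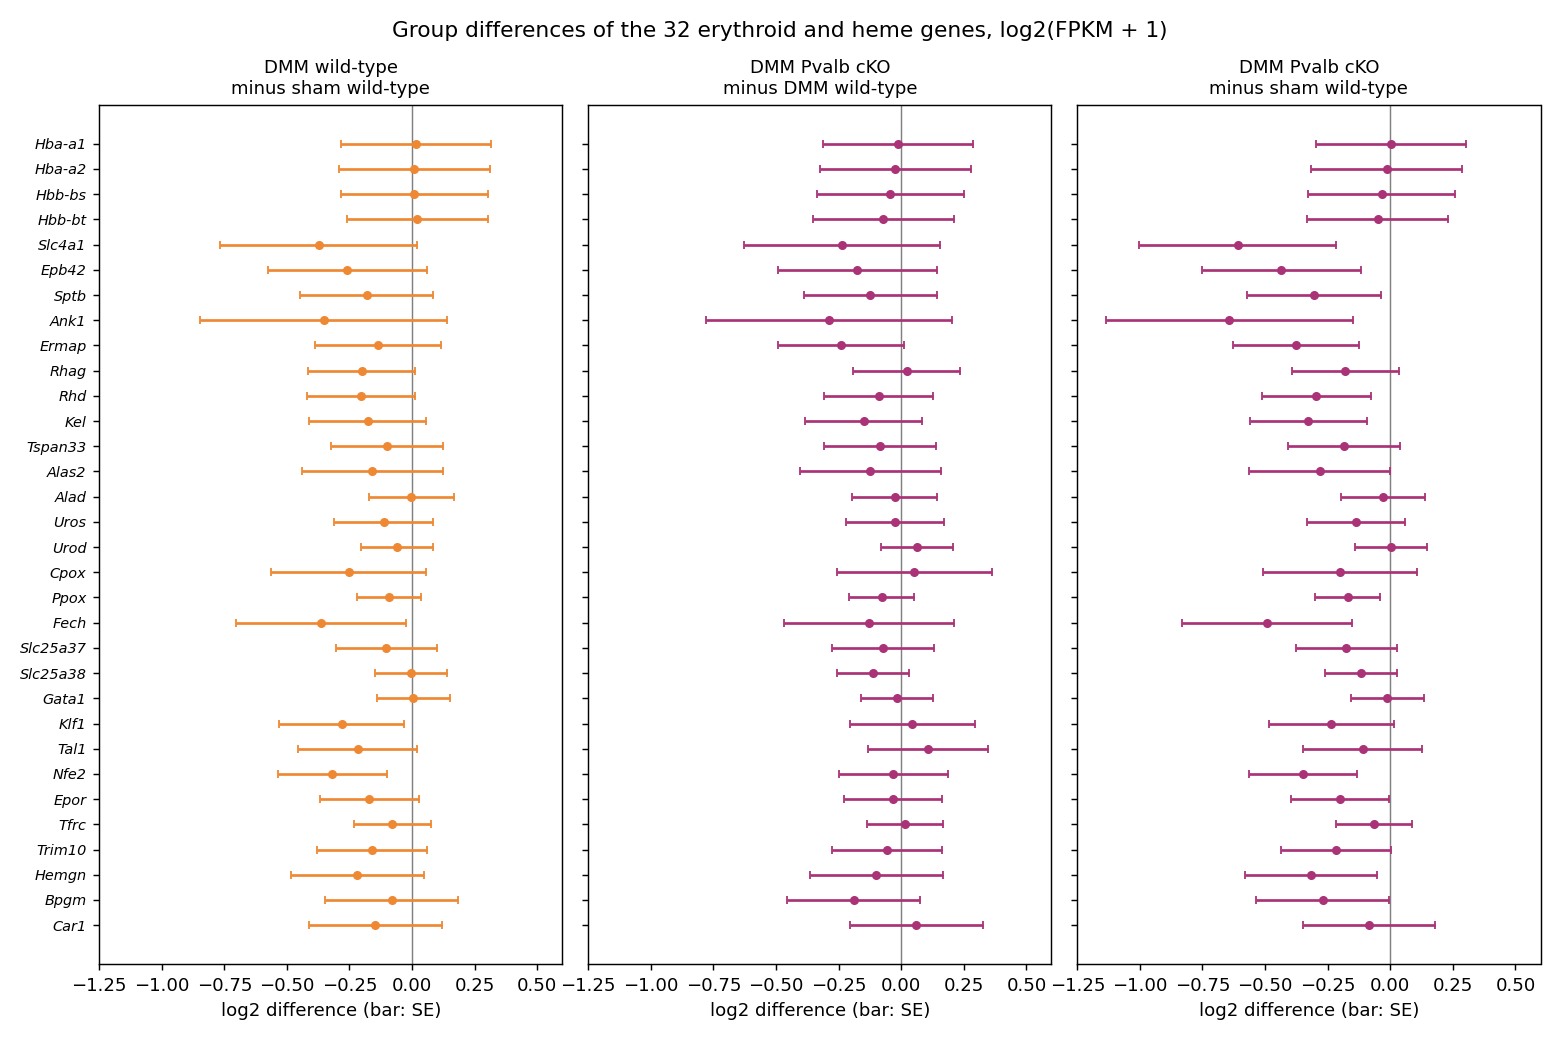
Log2 differences of the 32 genes in the 3 comparisons, with points for the fitted difference of group means and bars for 1 SE either side. Most points lie left of 0, 27, 25 and 30 of 32 in the panels from left to right, and the bars of the globin genes are centred within 0.08 of 0.

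The 32 genes stood high or low together in single libraries. Knockout replicate 1 was below the median of the other 14 libraries for 32 of 32 genes, with a median deviation of -1.11 on the log2 scale (0.465-fold), and was the lowest library for 25 of them. Sham replicate 4 was above that median for 32 of 32, by a median of 0.34 (1.27-fold), and was the highest library for 15. The remaining libraries had median deviations between -0.67 and 0.22. The correlation of each gene's log2 level with the mean of the other 31 had a median r of 0.91 over 15 libraries and was above 0.8 for 23 genes. It was 0.88 in the median over the 12 libraries left after taking out the 3 that stood apart. The lowest was that of Nfe2, 0.29 and 0.23, and the highest that of Rhd, 0.986 over 15 libraries. The genes share each library, so these r values describe the libraries and carry no test.

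Other marrow cells moved in the same libraries. In knockout replicate 1 the neutrophil list, 10 granule genes such as S100a8 and Ltf, had a mean log2(FPKM + 1) of 11.4, against 9.78 to 10.8 in the other 14 libraries, and a summed level of 53663 FPKM, against 15871 to 38413. The B cell list, 10 genes, was lowest there, 3.05 against 3.83 to 4.46, with a summed level of 137 FPKM against 276 to 371. The megakaryocyte and platelet list was 5.20 there, within the 5.10 to 5.45 of the others, and the macrophage list was lowest there at 4.53. No gene of these 4 lists was at 0 in any library. Their part in the low red cell values of this library was not tested.

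The deviation of a gene varied with its transcript length in most libraries. In DMM wild-type replicate 3 the globins deviated by a median of 0.11 from the other libraries, the 16 shorter genes (554 to 1994 bases) by -0.27 and the 16 longer ones (2037 to 10394 bases) by -0.85. In knockout replicate 4 the globins deviated by 0.72, the shorter genes by 0.27 and the longer ones by -0.08. In knockout replicate 1 the shorter genes deviated by -1.03 and the longer ones by -1.16. Spearman's rho between a gene's length and its deviation, across the 32 genes, was -0.66 in DMM wild-type replicate 3, -0.84 in knockout replicate 4 and -0.18 in knockout replicate 1. It was 0.83 in DMM wild-type replicate 1 and 0.72 in sham replicate 4. Values of like size and negative sign were also found in libraries that did not stand apart. They were -0.69 in sham replicate 3 and -0.51 in DMM wild-type replicate 5. Over 11842 tested genes with a length, rho was -0.53, -0.61, -0.42, 0.43, 0.25, -0.31 and -0.063 in the same order. Its 3 lowest values over these genes were in the 3 libraries that stood apart. A relation with length was thus present outside the red cell genes too. Genes are not independent replicates, and the part of length in the results was not tested.

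**Figure D4:**
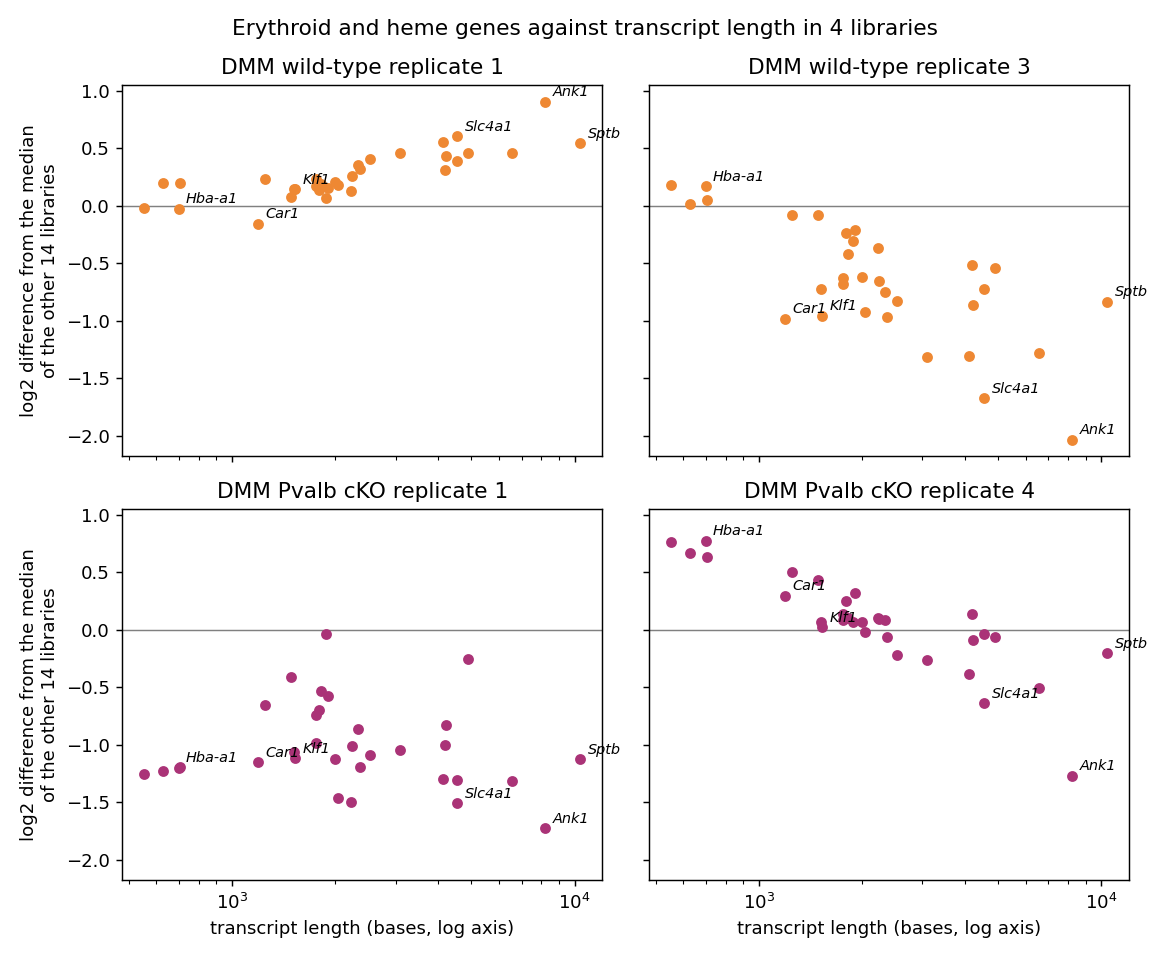
Deviation of each of the 32 genes from the median of the other 14 libraries (log2) against transcript length in bases on a log axis, in 4 libraries. Points fall with length in DMM wild-type replicate 3 and knockout replicate 4, rise with length in DMM wild-type replicate 1, and lie below 0 at all lengths in knockout replicate 1.

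The ratio of Hba-a1 to Slc4a1, the globin and the band 3 of the same late cells, was highest in DMM wild-type replicate 3 and knockout replicate 4. It was between 44.2 and 87.2 in 13 libraries, 235 in DMM wild-type replicate 3 and 174 in knockout replicate 4. Hba-a1 has a transcript of 699 bases and Slc4a1 one of 4545 bases.

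Early and late red cell genes were then compared within each library. Early genes were Gata1, Tal1, Klf1, Epor, Tfrc and Car1, which are on before hemoglobin fills the cell, and late genes were the 4 globins, Alas2, Slc4a1, Epb42 and Bpgm. The mean log2(FPKM + 1) of the early genes was 6.38 ± 0.20 in sham, 6.23 ± 0.33 in DMM wild-type bones and 6.26 ± 0.42 in the knockout group (SD, n = 5 each). That of the late genes was 10.9 ± 0.24, 10.8 ± 0.32 and 10.7 ± 0.63. Late minus early was 4.55 ± 0.072 in sham, 4.599 ± 0.16 in DMM wild-type bones and 4.46 ± 0.24 in the knockout group. The groups overlapped, with a range of 4.49 to 4.67 in sham, 4.34 to 4.76 in DMM wild-type and 4.07 to 4.72 in knockout DMM. The difference between knockout DMM and sham, -0.093, was 0.0040 without knockout replicate 1 and -0.049 without the 3 libraries, and that between DMM wild-type and sham, 0.046, was 0.0049 without DMM wild-type replicate 3. Between knockout and wild-type DMM bones it was -0.14, or -0.042 without knockout replicate 1.

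The result depended on which late genes were counted. With the globins left out, late minus early was 1.11 ± 0.057 in sham, 1.04 ± 0.24 in DMM wild-type bones and 0.83 ± 0.24 in the knockout group. In sham replicates 1 to 5 it was 1.16, 1.083, 1.10, 1.18 and 1.04. In DMM wild-type it was 1.25, 1.23, 0.70, 0.87 and 1.15, and in knockout DMM 0.45, 0.97, 1.05, 0.77 and 0.93. Knockout and sham ranges met only at their edges, 1.045 in knockout replicate 3 and 1.041 in sham replicate 5, and the 3 libraries that stood apart gave the 3 lowest values. The remaining 3 knockout libraries were at 0.93 to 1.045, and the remaining 4 DMM wild-type libraries at 0.87 to 1.25. With the globins alone, globin minus early was highest in DMM wild-type replicate 3 (8.83) and knockout replicate 4 (8.66) and lowest in knockout replicate 1 (7.70). The globin transcripts are 554 to 703 bases long, and those of Alas2, Bpgm, Epb42 and Slc4a1 are 2037, 2220, 4115 and 4545 bases. The 2 versions of the late list thus differ in length as well, and the part of length in these scores was not tested. No p is given for these scores over chosen genes.

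**Figure D5:**
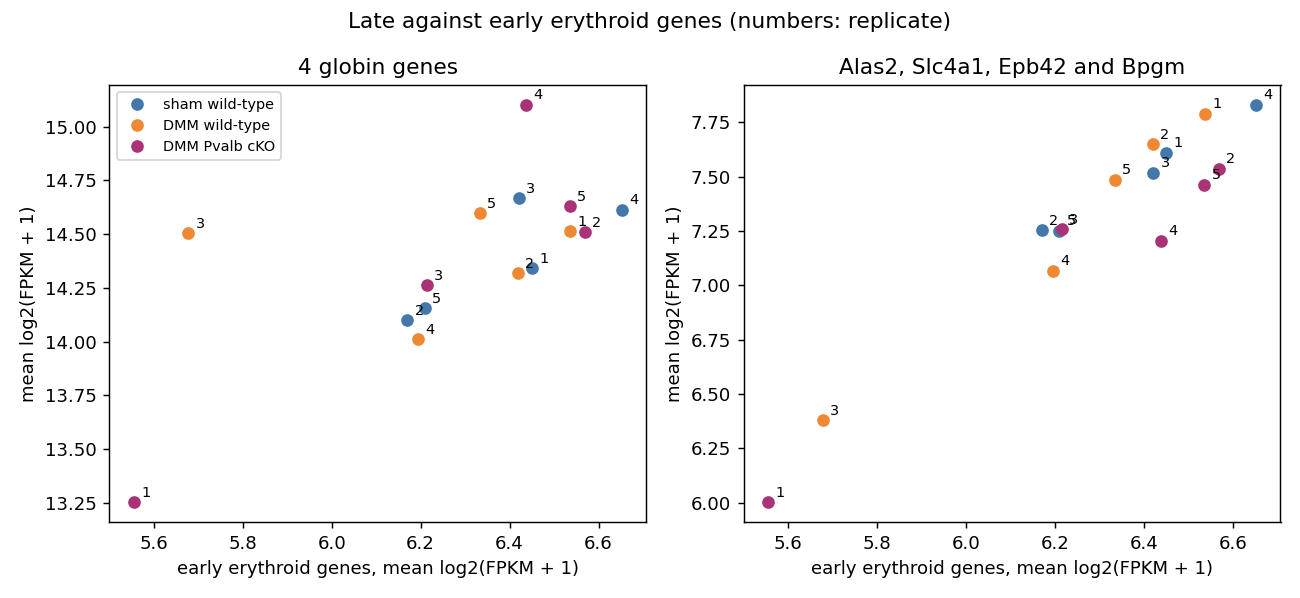
Mean log2(FPKM + 1) of the early genes on the horizontal axis against that of the 4 globin genes (left) and of Alas2, Slc4a1, Epb42 and Bpgm (right), with 1 point per library. Libraries line up more closely on the right, while DMM wild-type replicate 3 (early 5.68, globins 14.5) and knockout replicate 4 (early 6.44, globins 15.1) lie off the line of the others on the left.

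The wider pathway was read from lists that were not chosen by direction. Of 13 further red cell membrane genes, none was called in any comparison, with 9, 10 and 11 below 0 in DMM against sham, knockout against wild-type DMM and knockout DMM against sham. Without the 3 libraries 4, 8 and 6 of the 13 were below 0, and the median for DMM against sham went from -0.12 to 0.041. Epb41, which encodes protein 4.1 and is expressed in many cells, differed by -0.84 between knockout and wild-type DMM bones (SE 0.33, unadjusted p = 0.024; limma adjusted p = 0.935). It was 3.07 and 6.05 FPKM in knockout replicates 1 and 4 and 11.4 to 13.2 in the other 3, against 9.70 to 20.7 in DMM wild-type, so the groups overlapped, and the difference was -0.24 without the 3 libraries (unadjusted p = 0.403).

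Of 17 further heme and iron genes, 0 were called, with medians of -0.071, -0.050 and -0.091 in the 3 comparisons in that order and -0.014, 0.018 and -0.020 without the 3 libraries. Fth1 and Ftl1, the chains of the iron store ferritin, which macrophages also hold in quantity, had the smallest p of this list in knockout against wild-type DMM. Fth1 was 0.34 higher there (SE 0.14, unadjusted p = 0.0323; adjusted p = 0.935), at 264 ± 34.0 against 210 ± 40.3 FPKM, with groups that overlapped, and 0.45 higher without the 3 libraries. Ftl1 was 0.24 higher in knockout DMM than in sham (SE 0.11, unadjusted p = 0.0408; adjusted p = 0.469), and 0.15 higher without the 3 libraries.

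Of 14 further regulators, 0 were called, and 12, 11 and 12 were below 0 in the 3 comparisons, or 8, 10 and 12 without the 3 libraries. Lmo2, a bridging partner of Tal1, was 75.5, 59.4, 73.1, 83.5 and 61.4 FPKM in sham and 70.4, 60.8, 35.2, 36.8 and 44.6 FPKM in the same order after DMM. The groups overlapped, and the difference was -0.54 (SE 0.19, unadjusted p = 0.0115; adjusted p = 0.422), or -0.44 without the 3 libraries. Zfpm1, a cofactor of Gata1, differed by -0.67 with an SE of 0.51 in the same comparison (adjusted p = 0.917), and by -0.16 without the 3 libraries. Of 12 genes of terminal maturation, 0 were called and 11, 10 and 11 were below 0, or 3, 8 and 8 without the 3 libraries. Trim58, which acts in nuclear loss, had the smallest p of that list in knockout DMM against sham, with -0.80 (SE 0.41; adjusted p = 0.469), and it was -0.25 without the 3 libraries.

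Of 10 genes of erythropoietin signalling, 0 were called, and 6, 4 and 4 were below 0, or 4, 4 and 4 without the 3 libraries. Erfe encodes erythroferrone, the hormone that precursors release under erythropoietin to lower hepcidin. Erfe was at 1.82, 0.907, 1.71, 1.56 and 1.79 FPKM in sham, 3.62, 1.23, 1.51, 2.40 and 1.15 FPKM in DMM wild-type and 4.41, 3.07, 4.09, 2.05 and 3.38 FPKM in replicates 1 to 5 of the knockout group. All 5 knockout libraries were above all 5 sham libraries, and the DMM wild-type libraries overlapped both. Of all genes, 2.26% had groups that did not overlap in knockout DMM against sham, and 10.5% had an unadjusted p under 0.05. Erfe was named for the smallest p of its list there, and its values were close to the filter of 1 FPKM. The difference from sham was 0.77 in knockout DMM (SE 0.21, interval 0.32 to 1.22, unadjusted p = 0.00235; limma adjusted p = 0.432), which did not pass the threshold over all genes. It was 0.60 against DMM wild-type (SE 0.21; adjusted p = 0.935), and without the 3 libraries it was 0.83 and 0.61. Erfe was highest in knockout replicate 1, the lowest library for 25 of the 32 genes. The cells that its RNA came from were not tested. Epor, the receptor for erythropoietin, differed by -0.20 between knockout DMM and sham (SE 0.20; adjusted p = 0.599), by -0.033 without the 3 libraries and by -0.0074 without knockout replicate 1 alone. Socs3, a feedback inhibitor of several cytokine receptors, was 0.34 higher in knockout DMM than in sham (SE 0.14, unadjusted p = 0.0277; adjusted p = 0.469), and 0.45 higher without the 3 libraries.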

How the data were processed

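RNA was taken from 15 frozen tibial subchondral bones, 5 per group, and sequenced as poly(A) libraries with dUTP strand marking, per the labels' protocols. Per the submitters' processing notes, the tools included STAR 2.7.10a, Trimmomatic 0.39, FastQC 0.11.9 and featureCounts 2.0.3, with the build GRCm39. The authors deposited FPKM, in a single table. How FPKM were computed is not given in the sources used. Depth is unknown, so the number of libraries sets the precision and no counting interval is given.

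Columns were matched to samples by name, with 0 columns left unmatched. Of 55335 IDs, 55154 had a symbol and 181 did not. None of the 105 pairs of libraries was identical. The 13653 genes that reached 1 FPKM in 5 or more of the 15 libraries were fitted as log2(FPKM + 1) with limma 3.58.1 in R 4.3.3, with 1 mean per group and an intensity trend. The log2 scale of deposited FPKM plus 1 understates changes of low genes. Benjamini-Hochberg adjusted p under 0.05 was the threshold. The test was checked on simulated data for DMM against sham with 200 changed genes of 13653. Of the changes of 1 log2 unit 87.6% were found and of those of 2 97.3%, and 4.96% of calls were false. The simulated noise was independent for each gene and library, without the shared movement of genes in these libraries. The changed genes were drawn from the whole table, while errors of the 32 genes ran up to 0.49. These shares therefore do not say how often a change in the 32 genes would be found.

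The members, lists and tests were chosen with earlier results of these data known. All 32 members were named, with up to 2 genes of smallest p per pathway list and comparison and the 10 genes most correlated with the late genes. Alas1, Cd163, Siglec1 and the embryonic globins were named after their values were seen. Ahsp was listed and not analysed here, and some members of the wider lists are not reported here. Transcript length is that of the longest protein-coding transcript in GENCODE vM21, and upstream sequences are from RefSeq on GRCm38.p6, which is not the build of the values. BLAST 2.17.0 compared globin transcripts. Figures were drawn with matplotlib 3.10.9.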

Additional observations from a re-analysis of the deposited data

Results flagged for a closer look

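Each group of 5 libraries was checked for a highest or lowest value whose gap to its neighbour was more than 0.71 of the group's range. Of 102 groups checked, 96 of them for the 32 genes, 3 were past this limit, and chance gives about 1 in 20.

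Alas2 in knockout replicate 1 was 190.5 FPKM, and the nearest knockout library was at 453 FPKM. Bpgm in the same library was 40.2 FPKM, and the nearest was at 100.3 FPKM. The ratio of alpha to beta globin was highest in sham replicate 3, at 1.30, and the next sham library was at 1.17.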

How the results depend on the processing

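The count of the 32 genes called was 0 in all 3 comparisons under each alternative run: robust moderation, scaling by median of ratios or without the globins, a pseudocount of 0.1, no filter or one at 5 FPKM, a fit of the compared libraries alone, the replicate number as a block, the muscle covariate and each library left out. The smallest adjusted p of a member over these was 0.668, 0.342 and 0.286 in DMM against sham, knockout against wild-type DMM and knockout DMM against sham. Signs were less firm: of 800 values per comparison, 71, 103 and 60 changed sign, in 19, 32 and 20 of the 32 genes. The 800 values include the run without the 3 libraries that stood apart. Several runs cannot change a fitted difference: robust moderation, the filters, the fit of the compared libraries and the replicate block. The same holds for leaving out a library of the group not compared. The shares thus understate how often signs changed in runs that could change them.

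Counts over all genes moved more. DMM against sham called 0 genes, 2 without a filter, 249 with the muscle covariate and 0 to 2 with a library left out. Knockout against wild-type DMM called 1 gene, 2 without a filter and 1 to 2 with a library left out. Knockout DMM against sham called 4 genes, 7 without a filter, 7 with median-of-ratios scaling, 8 with the muscle covariate and 2 to 8 with a library left out. Leaving out the 3 libraries that stood apart, an alternative chosen after seeing the data, gave 7 there. The cause of these moves was not tested. The late minus early difference between knockout DMM and sham was -0.093 and became -0.28 without the globins, also chosen after seeing the data.

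With the replicate number as a block the counts were 0, 1 and 1. Deviations of the 15 same-numbered pairs correlated with a median r of -0.069 (-0.46 to 0.40). Those of the 60 other pairs had a median of -0.027 (-0.562 to 0.517), so same-numbered libraries were not more alike than others. A shared litter or batch was not tested. The depth is unknown and the SE of 0.13 to 0.49 limits what 5 bones per group can show.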

Other observations

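Outside the 32 genes and the pathway lists, 10 of 13556 genes had the log2 level most correlated with the mean of the 8 late red cell genes over the 15 libraries. Slc38a5, an amino acid transporter, came first with r = 0.987 and a range of 14.2 to 38.8 FPKM. Mylk3, known as a heart muscle kinase, followed with r = 0.980 and 4.23 to 12.5 FPKM. The next were Fn3k, a kinase that removes sugar from glycated protein (r = 0.972), and Fam117a (r = 0.966, 45.2 to 94.1 FPKM). Mrm1, Fn3krp, Cdr2, Sh2d4a, Mns1 and Aldh1a1 had r between 0.960 and 0.964. All 15 points share the libraries described above, so the r values are descriptions with no test.

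Macrophage markers of the marrow island, where red cell precursors mature, were lower in mean level in knockout DMM than in sham bones. Most of the macrophage list was also lower in DMM wild-type than in sham bones. Siglec1 and Cd163 were named after their values were seen. Siglec1, which encodes CD169, was at 5.90, 3.63, 3.93, 6.59 and 4.25 FPKM in sham and at 1.17, 2.62, 2.92, 1.14 and 3.07 FPKM in replicates 1 to 5 of the knockout group. The groups did not overlap. Of all genes, 2.26% had groups that did not overlap in this comparison, and 10.5% had an unadjusted p under 0.05. The Siglec1 difference was -0.91 (unadjusted p = 0.00822; limma adjusted p = 0.469). Knockout replicates 1 and 4 and DMM wild-type replicate 3 were its 3 lowest libraries, its transcript is 6387 bases long, and the difference was -0.57 without those libraries (unadjusted p = 0.0268; adjusted p = 0.683). Cd163, a receptor for hemoglobin bound to haptoglobin, was 7.93 ± 1.31 FPKM in sham and 4.46 ± 1.22 FPKM in knockout DMM bones (SD, n = 5 each), and the groups did not overlap (difference -0.73; adjusted p = 0.469). Without the 3 libraries the Cd163 difference was -0.50 (adjusted p = 0.725). Of the 10 macrophage genes 9 were below 0 in knockout DMM against sham, with a median of -0.19. In DMM wild-type against sham 9 were below 0 as well, with a median of -0.14. Between knockout and wild-type DMM bones 6 were below 0 and 4 above, with a median of -0.049. Neither Siglec1 nor Cd163 passed the threshold over all genes.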
